A study of Sus scrofa with 3 samples.

Results

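Collagens and laminins are the chains that build most of the fibres and sheets around the cells of adipose tissue. They were followed in the visceral adipose tissue of pigs, as the mRNA genes whose deposited name is COL, a number, A and a number, or LAM, a letter from A to C and a number. This rule gave 48 genes of the 22826 mRNA genes. There were 38 collagens, divided into 10 fibrillar collagens, 6 basement membrane collagens and 22 other collagens, and there were 10 laminins.

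The tissue was retroperitoneal fat of male Wuzhishan miniature pigs, a small Chinese breed, all of one age range and all fed the same high-fat, high-cholesterol (HFC) diet for 12 weeks. Intact male pigs (IM) had skin incisions only, castrated male pigs (CM) had their testes removed, and castrated pigs with testosterone replacement (CMT) also received 10 mg/kg testosterone propionate in corn oil by injection into muscle each week. No group on a standard diet was analysed here, and no injection of oil alone is described for IM or CM pigs. Total RNA from several pigs (4 to 6 by the labels) was mixed in equal amounts, so each group is 1 library. No difference between groups therefore has a replicate check, and in pooled tissue fewer cells of a type and less RNA per cell cannot be told apart.

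Collagen chains wind around each other in sets of 3 to form a triple helix. Fibrillar collagens pack into the long fibrils that bear tension, and types I and III make up most of those in the septa of fat. Type IV collagen forms a flat network that, joined with a network of laminins, makes the basement membrane which wraps every adipocyte and every capillary. A laminin holds 1 alpha, 1 beta and 1 gamma chain and is the part of the basement membrane to which cells attach. The other collagens decorate fibrils, link them to basement membranes, form beaded filaments or short networks, or span the cell membrane.

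Levels are in UQRPKM, which is the reads on a gene per unit of its length, scaled by the upper quartile of reads per gene in that library, so chains of different length can be compared. Whole reads were recovered from these values and on mRNA genes came to 14844063 (IM), 13582288 (CM) and 13449107 (CMT). At the median gene length, 3 reads were worth between 1.02 and 1.07 UQRPKM. Each difference is a log2 ratio of UQRPKM with an exact Clopper-Pearson 95% interval from the reads, which covers counting error only. The word called marks a gene whose values differed 1.5-fold or more while both libraries held at least 1 UQRPKM, and no test stands behind such a call. Comparisons are written CM/IM for CM against IM, CMT/CM for CMT against CM and CMT/IM for CMT against IM. They share libraries, so a value that is extreme in CM enters both CM/IM and CMT/CM.

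The libraries were adipose tissue by their markers, and CM and CMT each had high levels of marker genes of another tissue. Summed adipocyte markers were 122392 UQRPKM in IM, with 116212 in CM and 99211 in CMT, and CIDEA, 1 of the 6 genes in the data, was at 0. Summed stromal and progenitor markers were 11001, 9916 and 9357, and endothelial markers were 7383, 6287 and 6983. The 11 skeletal muscle markers summed to 82.5 in IM and 68.3 in CM, but 6145 in CMT, and 2 of them, TNNT3 and CKM, were at 0 throughout. The 10 liver markers summed to 2555, 9007 and 1735, and albumin alone had 10 reads in IM, but 10612 in CM, and 15 in CMT. Of the 6 epithelial markers in the data, KRT14 had 123, 0 and 3 reads and KRT5 had 24, 0 and 1, mostly in IM. KRT8 and CLDN4 were highest in CMT, EPCAM had at most 2 reads and CDH1 was at 0. CM/IM does not use the CMT library with its high muscle markers, and CMT/IM does not use the CM library with its high liver markers. CMT/CM uses both. Both comparisons with IM use the library that held most of the KRT14 and KRT5 reads.

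Reads fell on 42 of the 48 genes in IM, on 43 in CM and on 42 in CMT, and 39 were above 0 in all 3 libraries. COL4A3, COL9A1, COL10A1 and LAMA1 were at 0 in every library. Another 5 were above 0 in only 1 or 2 libraries, namely COL2A1, COL11A2, COL22A1, COL24A1 and COL25A1. There were 17 genes that reached 50 UQRPKM in at least 1 library, 14 that reached between 10 and 50, and 13 that stayed below 10. All of these genes together summed to 91377 UQRPKM in IM against 85928 in CM and 79957 in CMT, which was 1.47%, 1.40% and 1.32% of the summed mRNA values.

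**Figure D1:**
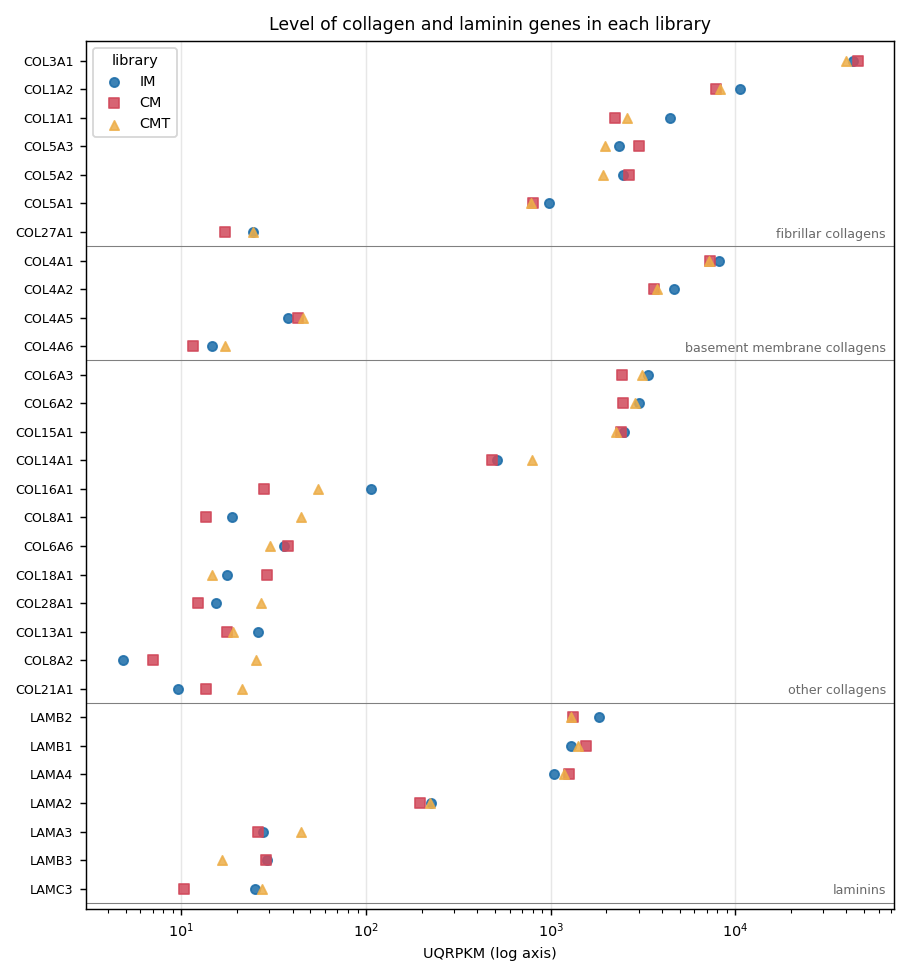
Level of 30 of the 31 collagen and laminin genes with at least 10 UQRPKM in 1 library or more, on a log axis in UQRPKM, with a circle for IM, a square for CM and a triangle for CMT (1 pooled library each, no error bars). COL3A1 lies far to the right of every other gene, between 39816 and 46011 UQRPKM, and the widest gaps between libraries are among genes at lower levels than COL14A1, such as COL16A1 and COL8A2.

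The fibrillar collagens held most of this RNA, and COL3A1 held most of the fibrillar sum. Their summed level was 64329 UQRPKM in IM, with 62590 in CM and 55420 in CMT, which was 70.4%, 72.8% and 69.3% of the sum over all 48 genes. COL3A1, the chain of type III collagen, had 43498 UQRPKM in IM against 46011 in CM and 39816 in CMT. Ranked by level it stood 8th among all mRNA genes in IM, 6th in CM and 10th in CMT. Because COL3A1 took 67.6%, 73.5% and 71.8% of the fibrillar sum, that sum mostly follows this gene and not the others. The sum holds only genes that fit the name rule. It leaves out LOC100738213, annotated as COL1A1 by the study, at 12452, 6560 and 6224 UQRPKM in IM, CM and CMT. Counting such further models would change the share of COL3A1 and the differences of this sum between libraries.

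The chains of type I collagen were highest in IM, unlike that of type III, which was highest in CM. COL1A1, the chain present in 2 copies in the type I helix, had 4453 UQRPKM in IM (9819 reads), 2235 in CM (4697 reads) and 2580 in CMT (5575 reads). It was high in IM and low in both castrated groups. It fell by 0.99 on the log2 scale in CM/IM (95% interval -1.04 to -0.94), which is 1.99-fold lower. In CMT/IM it fell by 0.79 (interval -0.83 to -0.74), and in CMT/CM the log2 ratio was 0.21 (interval 0.15 to 0.26), short of the fold threshold. COL1A2, its partner chain, had 10573, 7863 and 8309 UQRPKM in IM, CM and CMT. The order of the libraries was that of COL1A1, but the log2 ratio was -0.43 (interval -0.44 to -0.41) in CM/IM and -0.35 in CMT/IM, and neither reached the threshold. COL3A1 had a CM/IM log2 ratio of 0.08 (interval 0.07 to 0.09), of -0.21 in CMT/CM and of -0.13 in CMT/IM.

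A further gene model carries a type I chain and shows the same low values in the castrated groups. LOC100738213, which the study's own annotation describes as COL1A1, had 12452 UQRPKM in IM, with 6560 in CM and 6224 in CMT. Its log2 ratio was -0.92 (interval -0.95 to -0.90) in CM/IM and -1.0 in CMT/IM. In CMT/CM it was -0.08, whereas that of COL1A1 was 0.21. The recovered lengths were 1480 bases for COL1A1 and 3099 for LOC100738213, and how the authors assigned reads that match both is not given in the sources used here. This model is known from the study's list of changed genes, so it was selected for change and is not independent evidence of the fall.

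Type V collagen, a minor partner inside type I fibrils that limits their width, has 3 chains among the members, and each had its own pattern. COL5A1 had 980 UQRPKM in IM against 801 in CM and 787 in CMT, low in both castrated groups with log2 ratios of -0.29 and -0.32 against IM. COL5A2 had 2459, 2658 and 1926, low in CMT alone, with log2 ratios of 0.11 in CM/IM and -0.46 in CMT/CM. COL5A3 had 2339, 3000 and 1974, highest in CM and lowest in CMT. Its log2 ratio was 0.36 (interval 0.33 to 0.39) in CM/IM. In CMT/CM it fell by 0.60 (interval -0.63 to -0.57), just past the threshold, and each of 3 other scalings of the libraries put it short of the threshold, at -0.58, -0.58 and -0.55. COL5A3 had between 15337 and 22670 reads, so the counting intervals are narrow, whereas the spread between pools is unknown.

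The further model LOC100737434, annotated as COL5A1 by the study, had 659, 676 and 345 UQRPKM in IM, CM and CMT. Its log2 ratio in CMT/CM was -0.97 (interval -1.08 to -0.86), whereas that of COL5A1 was -0.03 (interval -0.10 to 0.04). Another model with this annotation, LOC102158099, had 33.0, 9.55 and 11.6 UQRPKM on 29, 8 and 10 reads, and its CM/IM log2 ratio was -1.79 (interval -3.13 to -0.62), whereas that of LOC100737434 was 0.04. Both further models are known from the study's list of changed genes. The 3 models of this chain thus gave different values in the same libraries. COL3A1 and COL5A2, neighbours in the RefSeq annotation of Sscrofa11.1, had log2 ratios of 0.08 and 0.11 in CM/IM and of -0.21 and -0.46 in CMT/CM.

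The remaining fibrillar collagens were low. COL27A1, a chain of cartilage and developing tissues, stayed between 17.2 and 24.5 UQRPKM. COL24A1 was called higher in CM/IM on 2 reads in IM and 4 in CM, with 2.18 and 4.58 UQRPKM and 0 in CMT, and its interval for the log2 ratio ran from -1.73 to 4.54. COL11A2, singled out after its values were seen, had 0 reads in IM and 1 in CM, but 29 in CMT, or 3.08 UQRPKM in CMT. Against 3 reads in IM, this is at least 9.87-fold higher. COL2A1, the main cartilage collagen, had 0, 2 and 4 reads. Medians over the fibrillar collagens above 0 in both libraries were -0.11 (8 genes) in CM/IM, 0.08 (9 genes) in CMT/CM and -0.32 (7 genes) in CMT/IM, beside -0.06, -0.02 and -0.07 over all mRNA genes. The value of 0.08 rests on the low genes, and over the 6 fibrillar collagens with at least 50 UQRPKM the median in CMT/CM was -0.12.

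**Figure D2:**
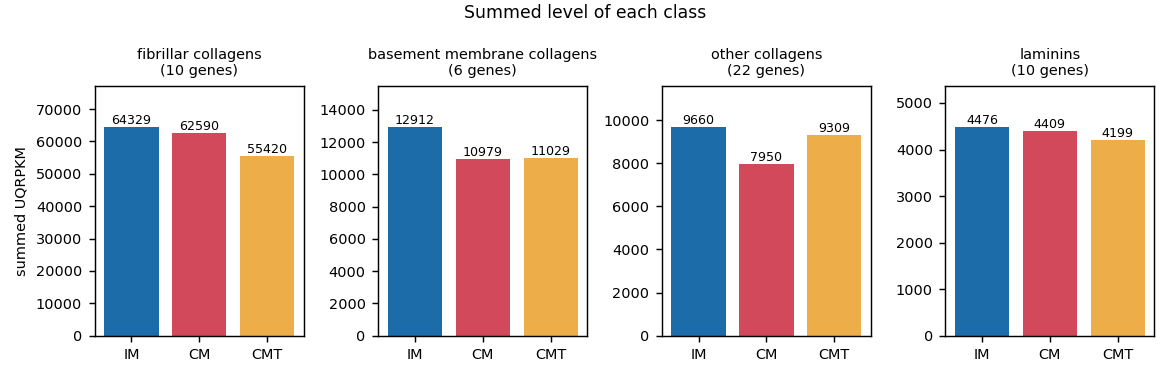
Summed UQRPKM of each class in IM, CM and CMT, each axis starting at 0 (1 pooled library per bar, no error bars). Only genes that fit the name rule are summed, without models such as LOC100738213 (COL1A1) and LOC100514785 (LAMC1). The fibrillar collagens have their lowest sum in CMT (55420), the other collagens have theirs in CM (7950), and the basement membrane collagens have lower sums in CM (10979) and CMT (11029) than in IM (12912).

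The basement membrane collagens had their highest sum in IM, and no gene of this class with at least 10 UQRPKM was called changed. COL4A1 and COL4A2, the chains of the type IV network found in nearly all basement membranes, made up almost all of the sum. COL4A1 had 8213 UQRPKM in IM, with 7283 in CM and 7201 in CMT, and COL4A2 had 4643, 3640 and 3764. Both were highest in IM, and their values in CM and CMT were close. The log2 ratios in CM/IM were -0.17 (interval -0.19 to -0.16) for COL4A1 and -0.35 (interval -0.37 to -0.33) for COL4A2. In CMT/CM they were -0.02 and 0.05, and in CMT/IM -0.19 and -0.30. These genes lie side by side in the RefSeq annotation.

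COL4A5 and COL4A6 encode chains of more specialised basement membranes, such as those of kidney and smooth muscle. They lay between 37.8 and 45.5 UQRPKM and between 11.6 and 17.2 UQRPKM, respectively. The largest difference was that of COL4A6 in CMT/CM, with a log2 ratio of 0.57 (interval 0.20 to 0.95), just short of the threshold, and past it under each of 3 other scalings, which put 10 genes of the set higher in CMT/CM in place of 9. A further model of COL4A5, LOC100737091, had 31.0, 36.3 and 51.4 UQRPKM in IM, CM and CMT. Its CMT/IM log2 ratio was 0.73 (interval 0.42 to 1.04), or 1.66-fold and past the threshold. That of COL4A5 was 0.27 (interval -0.03 to 0.57). COL4A4, a chain of the kidney filter, was low throughout, at 3.59 UQRPKM in IM (35 reads), 0.968 in CM (9 reads) and 1.05 in CMT (10 reads). It was called lower in CMT/IM, where it fell by 1.78 (interval -2.96 to -0.73), and in CM/IM it was just under 1 UQRPKM in CM and so could not be called. The class median was -0.34 in CM/IM, 0.09 in CMT/CM and -0.19 in CMT/IM, over 5 genes each.

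The other collagens held the lowest sum in CM, at 7950 UQRPKM against 9660 in IM and 9309 in CMT. Most of that gap lay in type VI collagen, which forms beaded filaments in the matrix around adipocytes. COL6A3, its longest chain and the precursor of the secreted fragment endotrophin, had 3361 UQRPKM in IM against 2437 in CM and 3117 in CMT. COL6A2 had 3012, 2457 and 2879. Both were low in CM and close to each other in IM and CMT. The log2 ratios in CM/IM were -0.46 (interval -0.48 to -0.44) for COL6A3 and -0.29 (interval -0.34 to -0.25) for COL6A2, and those in CMT/CM were 0.36 and 0.23. None of these reached a fold of 1.5. COL6A5, a low relative of COL6A3, had 6.98, 3.86 and 9.58 UQRPKM. It fell by 0.86 (interval -1.38 to -0.34) in CM/IM and rose by 1.31 (interval 0.82 to 1.82) in CMT/CM. COL6A6, another such relative, stayed between 30.2 and 37.8. COL28A1, which resembles type VI, had 15.3, 12.4 and 27.1 UQRPKM on 26, 20 and 45 reads, and rose by 1.13 (interval 0.34 to 1.97) in CMT/CM and by 0.82 (interval 0.09 to 1.58) in CMT/IM.

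Among the fibril-associated collagens, which sit on the surface of fibrils, COL16A1 was lowest in CM and COL14A1 was highest in CMT. COL16A1, which links fibrils with other matrix, had 106 UQRPKM in IM (258 reads), 28.1 in CM (65 reads) and 55.1 in CMT (131 reads). It fell by 1.92 (interval -2.33 to -1.52) in CM/IM, 3.78-fold, the largest fall among the collagens and laminins with at least 50 UQRPKM. It rose by 0.97 (interval 0.53 to 1.42) in CMT/CM, and CMT was still lower than IM, by a log2 ratio of -0.95 (interval -1.26 to -0.64). The further model LOC102165099, which the study's annotation describes as COL16A1, had 56.6, 14.3 and 30.9 UQRPKM, with log2 ratios of -1.98, 1.11 and -0.87 in CM/IM, CMT/CM and CMT/IM. Like the further model of COL1A1, it is known from a list of changed genes. The 2 models of COL16A1 gave ratios within each other's intervals in each comparison.

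COL14A1, which binds decorin on type I fibrils, had 515 UQRPKM in IM, with 480 in CM and 794 in CMT. It rose by 0.73 (interval 0.67 to 0.78) in CMT/CM and by 0.62 (interval 0.57 to 0.68) in CMT/IM, and IM and CM were close. It was the only one of the 17 genes with at least 50 UQRPKM to have its highest value in CMT. COL21A1, a small fibril-associated collagen known from blood vessel walls, had 9.62, 13.6 and 21.4 UQRPKM, and rose by 0.66 (interval 0.25 to 1.07) in CMT/CM and by 1.15 (interval 0.71 to 1.62) in CMT/IM. COL9A2, a cartilage chain, was called lower in CM/IM on 14 and 5 reads, and 1 read remained in CMT.

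COL8A1 and COL8A2, the chains of the short network of type VIII collagen beneath endothelium and in vessel walls, had the highest CMT/CM and CMT/IM ratios of the members with at least 10 UQRPKM in 1 library. COL8A1 had 18.8 UQRPKM in IM (140 reads), 13.7 in CM (97 reads) and 44.2 in CMT (323 reads). COL8A2 had 4.83 in IM (31 reads), 7.03 in CM (43 reads) and 25.4 in CMT (160 reads). Both were far higher in CMT than in either other library. COL8A1 rose by 1.70 (interval 1.36 to 2.04) in CMT/CM and by 1.24 (interval 0.94 to 1.53) in CMT/IM. COL8A2 rose by 1.86 (interval 1.36 to 2.38) and by 2.40 (interval 1.84 to 3.0), respectively, or 3.62-fold and 5.27-fold.

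The genes that rose in CMT did so in the library with high skeletal muscle markers. In CMT/CM, 8 of the 8 skeletal muscle markers above 0 in both libraries were called higher, beside 9.53% of all mRNA genes. Their median log2 ratio was 6.63. ACTA1, the main actin isoform of muscle fibres, was at 49.8 UQRPKM in IM against 39.8 in CM and 3589 in CMT. Summed mesothelial markers, from the lining that covers the fat, were 70.5 in IM, then 103 in CM and 188 in CMT. In CMT/IM, 3 of the 4 above 0 in both libraries were called higher, beside 8.81% of all mRNA genes. The other, KRT18, was called lower, with 28.7, 26.7 and 14.4 UQRPKM, and LRRN4 was at 0 throughout. Summed epithelial markers were 173, 113 and 355, but the 6 genes in the data did not move together. KRT8, a keratin of simple epithelia and mesothelium, had 51.2, 102 and 307 UQRPKM, whereas KRT14, a keratin of skin, had 123, 0 and 3 reads, KRT5, its partner, had 24, 0 and 1, and CDH1 was at 0 throughout. In CMT/IM, 1 of the 5 epithelial markers above 0 in both libraries was called higher and 2 were called lower, beside 8.81% and 11.9% of all mRNA genes. Their median log2 ratio of -0.97 is that of EPCAM, which rested on 2 reads in IM and 1 in CMT. The part of muscle, mesothelial or epithelial cells in the values of COL8A1, COL8A2, COL14A1, COL21A1, COL28A1 and LAMA3 was not tested.

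COL15A1 and COL18A1, the multiplexins that tether basement membranes to the matrix beyond them, differed from each other. COL15A1 had 2499 UQRPKM in IM, with 2395 in CM and 2257 in CMT, and its log2 ratios were -0.06, -0.09 and -0.15 in CM/IM, CMT/CM and CMT/IM. COL18A1, the precursor of endostatin, had 17.6 in IM (43 reads), 29.1 in CM (68 reads) and 14.6 in CMT (35 reads). It was called higher in CM/IM, with a log2 ratio of 0.73 (interval 0.16 to 1.32), and lower in CMT/CM, at -0.998 (interval -1.63 to -0.39). The further model LOC100624675, which RefSeq assigns to COL18A1 and which holds more reads, had 109, 102 and 79.1 UQRPKM. Its log2 ratio in CM/IM was -0.10 (interval -0.27 to 0.08), so the higher value of COL18A1 in CM was not seen in it. Liver makes much collagen XVIII, and liver markers were highest in CM, with APOA1 alone giving 2539 of the sum of 2555 in IM. Their part in the value of COL18A1 was not tested.

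The transmembrane and anchoring collagens were low. COL23A1 had 7.49, 4.64 and 4.17 UQRPKM on 22, 13 and 12 reads and was called lower in CM/IM and in CMT/IM, and both intervals included 0. COL17A1, the collagen of hemidesmosomes in skin, had 2.77, 1.80 and 0.404 UQRPKM on 21, 13 and 3 reads and was called lower in CM/IM, with an interval from -1.74 to 0.44. KRT14 and KRT5, keratins of skin, also had most of their reads in IM. The part of epithelial cells in the values of COL17A1 and COL7A1 was not tested. COL25A1 was called lower in CMT/IM on 3 and 1 reads. COL22A1, singled out after its values were seen, had 10 reads in IM and 11 in CM, but 0 in CMT, at least 3.77-fold lower in CMT than in CM. COL7A1, the anchoring fibril of skin, lay between 6.53 and 9.74 UQRPKM, COL13A1 between 17.7 and 25.9, and COL19A1 between 0.727 and 1.53, with no call for any of these. Over the other collagens above 0 in both libraries, the median log2 ratio was -0.31 (19 genes) in CM/IM, 0.17 (18 genes) in CMT/CM and -0.15 (19 genes) in CMT/IM.

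The major laminins of fat differed little between the libraries, and against IM the ratios of the major beta chains were of opposite sign. LAMA4 and LAMA2 are the alpha chains of capillary and muscle type basement membranes and are also made by adipocytes and stromal cells. LAMA4 had 1046 UQRPKM in IM against 1250 in CM and 1175 in CMT, and the CM/IM log2 ratio was 0.26 (interval 0.22 to 0.30). LAMA2 had 226, 197 and 222. LAMB1, the widespread beta chain, had 1290, 1560 and 1412, lowest in IM, and the CM/IM log2 ratio was 0.27 (interval 0.24 to 0.31). LAMB2, the beta chain of vessel wall, kidney and neuromuscular basement membranes, had 1819, 1320 and 1292, highest in IM, with log2 ratios of -0.46 (interval -0.50 to -0.42) in CM/IM and -0.49 in CMT/IM. None of these 4 genes reached a fold of 1.5.

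The calls among laminins were in low genes. LAMA3 and LAMB3 are an alpha and a beta chain known from the laminin of epithelia. LAMA3 had 27.8 UQRPKM in IM, with 26.1 in CM and 44.5 in CMT, and rose by 0.77 (interval 0.52 to 1.02) in CMT/CM. LAMB3 had 29.0, 28.7 and 16.5, and fell by 0.79 (interval -1.25 to -0.35) in the same comparison. LAMA3 thus went up and LAMB3 went down between the same libraries. Against IM, LAMA3 rose by 0.68 (interval 0.44 to 0.92) and LAMB3 fell by 0.81 (interval -1.26 to -0.37). The further model of LAMB3, LOC100736655, had 94.3, 53.1 and 45.7 UQRPKM, already low in CM, whereas LAMB3 did not differ between IM and CM beyond counting error. In CMT/CM the log2 ratio of this further model was -0.22 (interval -0.82 to 0.38), an interval that spans both 0 and the ratio of LAMB3. The part of epithelial cells in the values of LAMB3 and of its further model was not tested.

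LAMC3, a gamma chain of a few vascular, neural and reproductive basement membranes, was low in CM only. It had 25.0 UQRPKM in IM (142 reads), 10.4 in CM (56 reads) and 27.3 in CMT (152 reads). It fell by 1.27 (interval -1.75 to -0.82) in CM/IM and rose by 1.40 (interval 0.95 to 1.87) in CMT/CM, and the log2 ratio in CMT/IM was 0.13 (interval -0.21 to 0.47). LAMB4 stayed between 0.492 and 1.16 UQRPKM. The laminin median was -0.02 in CM/IM, -0.09 in CMT/CM and 0.03 in CMT/IM over 9 genes each, and the sign of the first turned, to at most 0.04, when the libraries were scaled in each of 3 other ways.

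The summed smooth muscle and pericyte markers were lower in CM and in CMT than in IM, beside several genes that were low in CM. Their sum was 5751 UQRPKM in IM against 4449 in CM and 4622 in CMT, and 3 of the 6 above 0 in both libraries were called lower in CM/IM with 0 called higher, beside 10.4% lower of all mRNA genes. Of these 3, MYOCD rested on 13 and 2 reads, while RGS5, a pericyte gene, had a log2 ratio of 0.33 (interval 0.20 to 0.46), and MYH11 was at 0 in every library. The order of CM and CMT in the sum turns on DES, which had 52.9, 33.0 and 459 UQRPKM, highest in the library with high skeletal muscle markers. ACTA2 and TAGLN, which held most of the sum, were lowest in CMT, at 1654 and 2090 UQRPKM, as was RGS5. CNN1, DES and MYOCD were lowest in CM. The Schwann cell markers, another basement membrane-bearing type, summed to 99.7, 89.5 and 98.96, and 3 of 5 were called lower in CM/IM, with SOX10 on 5 and 3 reads and NCMAP on 17 and 9. The part of these cells in the values of COL16A1, LAMC3, LAMB2 and the type IV and VI chains was not tested.

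**Figure D3:**
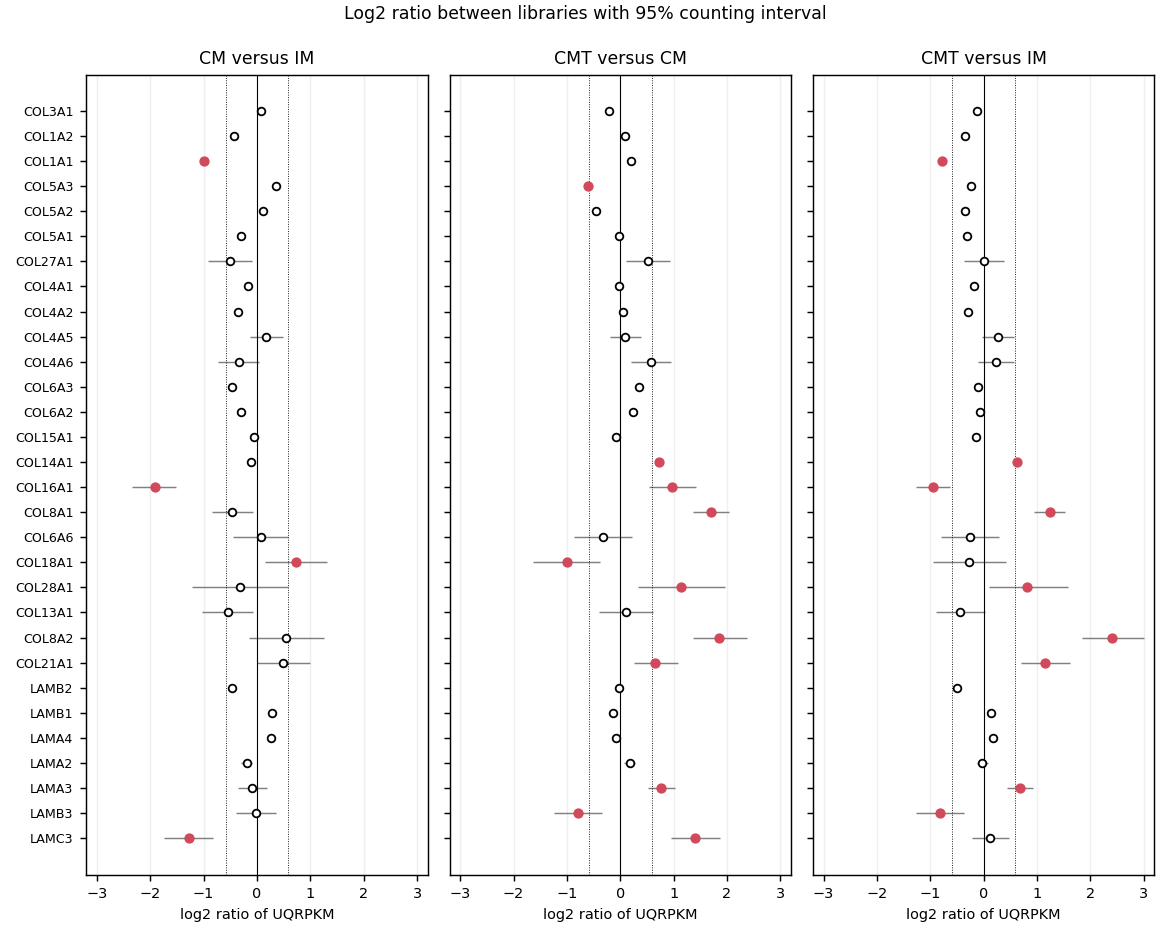
Log2 ratio of UQRPKM in CM/IM, CMT/CM and CMT/IM for 30 of the 31 genes with at least 10 UQRPKM in 1 library or more, with 95% counting intervals as grey lines. Filled points were called changed and dotted lines mark a fold of 1.5. COL1A1, COL16A1 and LAMC3 lie at or below -0.99 in CM/IM, and COL8A1 and COL8A2 lie at or above 1.70 in CMT/CM.

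Over the whole set, 9 of the 38 genes that reached 1 UQRPKM in IM and CM (23.7%) were called changed in CM/IM, beside 18.8% of all mRNA genes. There were 2 higher (8.38% of all mRNA genes were), COL18A1 and COL24A1, and 7 lower, namely COL1A1, COL6A5, COL9A2, COL16A1, COL17A1, COL23A1 and LAMC3, which is 18.4% lower beside 10.4% of all mRNA genes. In CMT/CM, 13 of 35 (37.1%) were called beside 19.5%, with 9 higher and 4 lower (9.97% of all mRNA genes were lower). The 9 higher genes were 25.7% of the set beside 9.53% of all mRNA genes, and 7 of them were other collagens. In CMT/IM, 12 of 36 (33.3%) were called beside 20.7%, with 6 higher and 6 lower (8.81% and 11.9% of all mRNA genes).

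Most of these calls came from genes at low levels, though not all of those had few reads. Of the 20 genes called in at least 1 comparison, 16 stayed under 50 UQRPKM in every library. Among the 17 genes with at least 50 UQRPKM, 2 (11.8%) were called in CM/IM, 3 (17.6%) in CMT/CM and 3 (17.6%) in CMT/IM, beside 8.56%, 9.08% and 11.0% of all mRNA genes at that level. Requiring also an exact binomial test on the reads, with Benjamini-Hochberg adjustment, left 5 genes (13.2%) in CM/IM, 13 (37.1%) in CMT/CM and 9 (25%) in CMT/IM. Of all mRNA genes, 10.1%, 10.6% and 11.9% were left. That test compares libraries and not conditions. In CM/IM it dropped COL9A2, COL17A1, COL23A1 and COL24A1, and in CMT/IM COL23A1, COL25A1 and COL28A1.

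Among the 17 genes with at least 50 UQRPKM, 11 were highest in IM, 5 were highest in CM and 1 was highest in CMT, which is 64.7%, 29.4% and 5.88% beside 46.8%, 27.9% and 25.3% of all mRNA genes at that level. The 5 with the highest value in CM were COL3A1, COL5A2, COL5A3, LAMA4 and LAMB1. In CMT/IM, 14 of the 17 had a negative log2 ratio, beside 5287 of 8464 mRNA genes at that level. The median was -0.19, beside -0.10 over all mRNA genes at that level. Scaling by total mRNA reads moved every log2 ratio in this comparison up by 0.11. That turned COL6A2 and COL6A3 positive, to 0.05 and 0.004, and LAMA2, at -0.02, also lies within that shift. The count of 14 therefore depends on the scaling.

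The ratios of chains within a library, which do not depend on how libraries are scaled against each other, also differed. The ratio of COL3A1 to COL1A2 was 4.11 in IM (95% interval 4.08 to 4.15), but 5.85 in CM (5.80 to 5.90), and 4.79 in CMT (4.75 to 4.83). That of COL3A1 to COL1A1 was 9.77, 20.6 and 15.4. Type III chains thus stood highest against type I chains in CM. Between type I chains, the ratio of COL1A2 to COL1A1 was 2.37, 3.52 and 3.22, and that of COL1A2 to the further model LOC100738213 was 0.849, 1.199 and 1.33, lowest in IM with either model.

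Within type V, the ratio of COL5A2 to COL5A1 was 2.51 in IM, but 3.32 in CM, and 2.45 in CMT, and that of COL5A3 to COL5A1 was 2.39, 3.75 and 2.51. Both were highest in CM and close in IM and CMT, but they rest on a COL5A1 model whose further models had other values. Within type IV, the ratio of COL4A2 to COL4A1 was 0.565, 0.4998 and 0.523, and within type VI that of COL6A3 to COL6A2 was 1.12, 0.992 and 1.08. These major partner chains kept their ratio within a narrower range than the type I and type V chains. Among laminins, the ratio of LAMB2 to LAMB1 was 1.41 (1.38 to 1.45) in IM, but 0.846 (0.824 to 0.869) in CM and 0.915 (0.891 to 0.939) in CMT, so LAMB2 was the higher beta chain in IM and LAMB1 in both castrated groups.

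**Figure D4:**
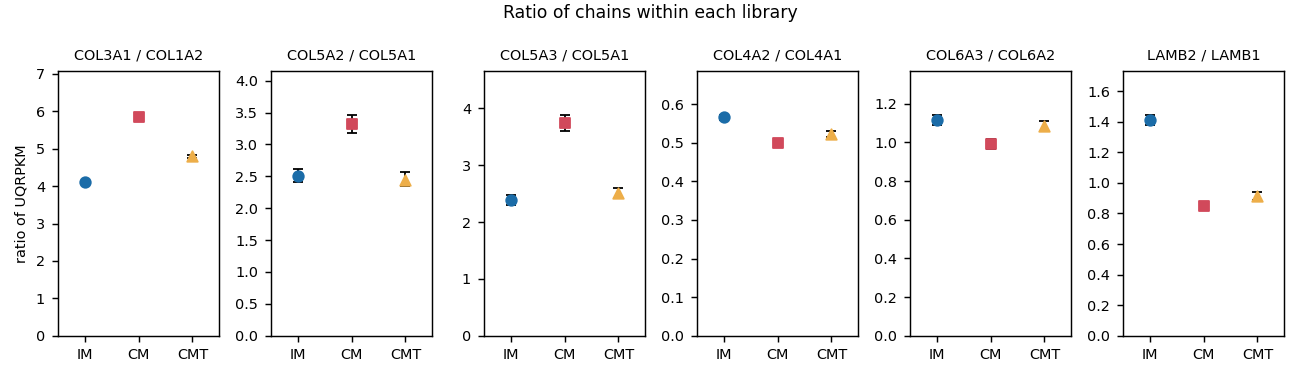
Ratio of UQRPKM of 6 pairs of chains in IM, CM and CMT, each axis starting at 0, with 95% counting intervals as bars (1 pooled library per point). COL3A1 to COL1A2 and both type V ratios are highest in CM (5.85, 3.32 and 3.75), and LAMB2 to LAMB1 is above 1 in IM only (1.41).

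**Figure D5:**
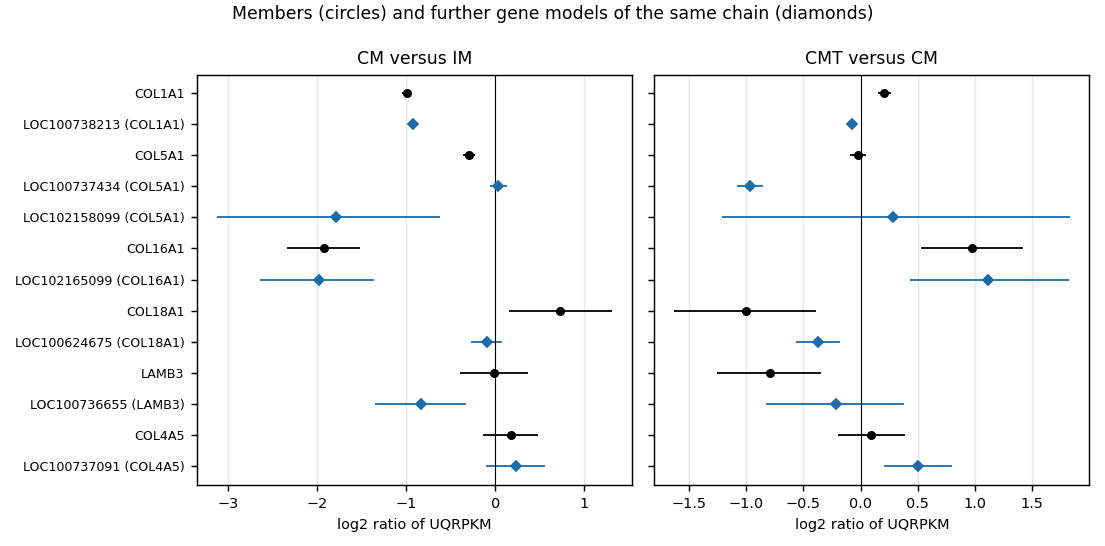
Log2 ratio of UQRPKM in CM/IM and in CMT/CM for 6 members (circles) and the further deposited gene models of the same chains (diamonds, with the chain in brackets), with 95% counting intervals. The models of COL1A1 lie at -0.99 and -0.92 and those of COL16A1 at -1.92 and -1.98 in CM/IM, whereas COL18A1 (0.73) and its further model (-0.10) differ.

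Genes that process and bind collagen were taken from lists, and are given as counts with no test. Of 18 fibril-bound proteoglycans and glycoproteins, 1 was higher and 3 were lower in CM/IM, beside 18.8% called of all mRNA genes, a share that 4 of 18 is close to. In CMT/CM 5 were higher and 0 lower, beside 9.53% higher and 9.97% lower, and in CMT/IM 4 were higher and 1 lower, beside 8.81% and 11.9%. Their medians were -0.26, 0.30 and 0.08. FMOD (fibromodulin), which sits on type I and II fibrils, had 280 UQRPKM in IM, with 320 in CM and 719 in CMT. DPT (dermatopontin), which speeds fibril assembly, had 4519, 3728 and 7505. THBS1, a matrix glycoprotein that activates TGF-beta, had 257, 195 and 469. KERA (keratocan), best known from cornea and tendon, had 5.91, 19.3 and 54.6. All 4 were highest in CMT, and each rose in CMT/CM, by 1.17, 1.01, 1.27 and 1.499 on the log2 scale, the library in which COL14A1 was also highest. The part of skeletal muscle in these values was not tested.

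The lists of enzymes gave small numbers of calls. Of all mRNA genes, 18.8% were called in CM/IM, 19.5% in CMT/CM and 20.7% in CMT/IM. Of 18 genes for folding and hydroxylation of collagen chains, 1 was lower in CM/IM, 1 higher in CMT/CM and 2 higher in CMT/IM. P4HA1, a subunit of prolyl hydroxylase, was 1 of these 2, with 183, 204 and 304 UQRPKM and a rise of 0.73 against IM. Of 10 genes for procollagen processing, 8 were above 0 in both libraries of each comparison. Among these, 0 were called in CM/IM, 1 was higher in CMT/CM, and 2 were higher and 1 lower in CMT/IM. Of the 2 higher in CMT/IM, TLL2 rested on 3 reads in IM and 5 in CMT. PCOLCE2, an enhancer of the C-proteinase, had 772, 961 and 1188 and rose by 0.62 against IM. Of 5 cross-linking genes, 1 was lower in CM/IM and 1 in CMT/CM. The latter was LOXL1, a lysyl oxidase of elastic fibres, with 48.0, 64.5 and 40.0 UQRPKM, which fell by 0.69.

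Of the basement membrane partners and receptors, those called in CM/IM were lower, beside 10.4% lower of all mRNA genes. Of 11 basement membrane partners, 7 were above 0 in both IM and CM, 2 of these were lower in CM/IM, and 1 was lower in CMT/IM. SMOC1, a calcium-binding protein of basement membranes, had 230, 150 and 165 UQRPKM and fell by 0.62 in CM/IM. Of 15 collagen and laminin receptors, 13 were above 0 in both libraries of each comparison, 3 of these were lower in CM/IM, and 1 was higher in CMT/CM. ITGA11, the alpha chain of a fibrillar collagen receptor on fibroblasts, had 98.6, 63.4 and 94.6 and fell by 0.64 in CM/IM. Its log2 ratio in CMT/CM was 0.58, just short of the threshold.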

How the data were processed

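RNA-Seq of visceral adipose tissue was analysed in 3 libraries, 1 pool of pigs for each of IM, CM and CMT, grouped by their labels. The authors filtered single-end Ion Proton reads, mapped them to Sscrofa 10.2 with MapSplice and deposited RPKM values scaled by the upper quartile (UQRPKM) for 34570 genes. The counting tool, its use of strand and its handling of reads that match several genes are not given in the sources used here. Whole reads were recovered as value times upper quartile (149, 142 and 146) times length divided by 100000, taking the shortest length that gave whole reads in every library within a relative error of 1e-08. This succeeded for 20838 of 20838 genes above 0, and reads can be low by a common factor. Total reads on all genes were 16611931, 15561124 and 15106608.

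Calls used the fold and level thresholds of the study (1.5 and 1 UQRPKM) without its test, since 1 library per group has no replicates. Read recovery and the exact binomial alternative were tested on simulated data. Members with at least 50 UQRPKM in 1 library or called in any comparison are given with values, except 1 that is counted but not reported here. In each pathway list, called genes with at least 50 UQRPKM and the largest log2 ratios are named, up to 4. The members, classes, pathway lists, marker lists and thresholds were chosen with earlier results of these data known. RefSeq tables (Sscrofa11.1) were used for names only: 48 of 48 members matched, as did 11 genes with LOC names, and 6 more were named from the study's annotation. Ratios to COL6A1 were planned, but that gene is not analysed here. Alternatives were 3 other scalings, a pseudocount of 1, no minimum or 10 UQRPKM, a fold of 2, the exact test and another class for the multiplexins. A minimum of 20 reads was added after seeing the data. Python 3.11.15, numpy 2.4.6, pandas 2.3.3, scipy 1.17.1 and matplotlib 3.10.9 were used.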

Additional observations from a re-analysis of the deposited data

How the results depend on the processing

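The count of members called in CM versus IM (9) became 4 with at least 10 UQRPKM in both libraries, 4 at a fold of 2 and 5 with the exact binomial test. That in CMT versus CM (13) became 5 at a fold of 2, and that in CMT versus IM (12) became 7 with at least 10 UQRPKM and 5 at a fold of 2. Other scalings, a pseudocount, no minimum level and a minimum of 20 reads kept all 3 counts within 1.5 times. At a fold of 2, 8.06%, 8.69% and 8.21% of all mRNA genes were called.

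The fibrillar median in CM versus IM (-0.11) became -0.0466 with total reads equal, -0.0439 with the median of all genes at 0 and -0.29 with at least 10 UQRPKM. In CMT versus CM (0.08) it became -0.0256 with at least 10 UQRPKM. In CMT versus IM (-0.32) it became -0.20 with total reads equal and -0.24 with the median of all genes at 0. The basement membrane median in CMT versus IM (-0.19) was 0.02 with at least 10 UQRPKM. Of 95 log2 ratios of named members, the sign differed for 7 with total reads equal, 5 with the median at 0, 3 with total UQRPKM equal and 0 with the pseudocount.

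No paired analysis was possible because each group is 1 library. With 1 pool per group there was no replicate to leave out, depth limits the calls that rest on few reads, and differences between pools were not measured.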

Other observations

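Collagen and laminin chains that the data hold under other names fell outside the set, and several of them differed more between libraries than most members did. LOC100156689, which RefSeq assigns to COL12A1, a fibril-associated collagen of tendon and muscle sheaths, had 108 UQRPKM in IM against 124 in CM and 371 in CMT. Its log2 ratio was 0.19 (95% counting interval 0.08 to 0.31) in CM/IM, 1.58 (1.49 to 1.67) in CMT/CM and 1.78 (1.68 to 1.87) in CMT/IM. The gene deposited as COLL11A1, annotated by the study as COL11A1, the fibrillar partner of types II and V, had 3.89, 11.5 and 52.4 UQRPKM on 31, 87 and 409 reads. Its log2 ratios were 1.56, 2.19 and 3.75, and a further model of the chain, LOC100737939, had 2, 4 and 40 reads. COL11A2, a member, had 0, 1 and 29 reads.

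LOC100514785, which RefSeq assigns to LAMC1, the main gamma chain, had 2775, 2735 and 2607 UQRPKM and log2 ratios of -0.02, -0.07 and -0.09. Against this chain, LAMB1 stood at 0.465 in IM, 0.570 in CM and 0.542 in CMT, LAMA4 at 0.377, 0.457 and 0.451, and LAMB2 at 0.656, 0.483 and 0.496. LOC100519542, assigned to COL26A1, had 3, 1 and 2 reads. These genes were singled out after their values were seen, COLL11A1 and LOC100737939 are known from the study's list of changed genes, and the part in their values of the tissue behind the high skeletal muscle markers in CMT was not tested.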
